A study of Mus musculus with 6 samples.

Results

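The genes of the Notch pathway were followed in the embryonic pancreas of wt mice at 13.5 and 15.5 dpc (days post coitum). The 37 genes were taken by their symbols as 4 receptors, 5 ligands, 3 fringe glycosyltransferases, 8 genes of ligand and receptor processing, 4 genes of the nuclear complex, 7 targets and 6 modulators. All 37 were among the 37224 gene identifiers of the count table, and 36 passed the filter on low counts, as did 15578 genes overall. There were 3 samples per stage, all wild type and of the strain C57/Bl6J, and each a pool of pancreata from up to 3 embryos. Poly(A) RNA was sequenced from strand-specific libraries.

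Notch receptors are bound by Delta and Jagged ligands on neighbouring cells. Bound receptors are cut first by an ADAM protease and then by γ-secretase, and the released intracellular domain joins the DNA-binding protein Rbpj and a Mastermind coactivator to switch on *Hes* and *Hey* genes. In the developing pancreas the pathway is known for holding back the endocrine factor *Neurog3* in progenitors, through *Hes1*, and for acting in the choice between trunk and tip of the branching epithelium.

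Rbpj recognises a short DNA motif, and the 250 bases before the annotated start of each gene were searched for GTGGGAA on both strands, in RefSeq promoters of GRCm38.p6, the assembly called mm10. The motif was in 1779 of 32851 promoters in the table (5.42%). It was in 4 of the 39 promoters listed for the Notch pathway genes (10.3%), which belong to 30 of the 37 genes. Those 4 are shown because they include genes of very different behaviour between the stages. Capitals mark the motif, which reads TTCCCAC where it lies on the opposite strand.
*Hes5*: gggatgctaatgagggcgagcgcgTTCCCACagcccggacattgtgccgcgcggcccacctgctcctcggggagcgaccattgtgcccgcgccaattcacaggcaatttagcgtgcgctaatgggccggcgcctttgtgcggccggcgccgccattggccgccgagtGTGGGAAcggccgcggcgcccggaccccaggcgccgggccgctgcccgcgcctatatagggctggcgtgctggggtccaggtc
*Hey2*: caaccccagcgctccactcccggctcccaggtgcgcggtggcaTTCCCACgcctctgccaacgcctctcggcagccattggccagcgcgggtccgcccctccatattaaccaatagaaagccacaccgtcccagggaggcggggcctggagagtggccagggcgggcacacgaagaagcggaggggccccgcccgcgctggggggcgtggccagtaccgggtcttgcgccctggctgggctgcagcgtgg
*Lfng*: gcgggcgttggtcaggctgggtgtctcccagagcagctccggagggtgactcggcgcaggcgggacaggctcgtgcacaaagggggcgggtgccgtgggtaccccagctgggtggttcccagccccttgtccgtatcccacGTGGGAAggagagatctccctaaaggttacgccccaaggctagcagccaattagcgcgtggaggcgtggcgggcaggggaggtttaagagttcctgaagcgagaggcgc
*Psen2*: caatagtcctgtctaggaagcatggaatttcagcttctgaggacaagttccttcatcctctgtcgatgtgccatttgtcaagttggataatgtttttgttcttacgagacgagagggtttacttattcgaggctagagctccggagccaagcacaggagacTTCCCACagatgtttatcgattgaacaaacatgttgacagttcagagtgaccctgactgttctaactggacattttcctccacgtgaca
The *Hes5* promoter is at chr4:154960673-154960922 on the plus strand and holds 2 copies, the first bases of which lie 226 and 83 bases before the start. The other promoters hold 1 copy each. That of *Hey2* is at chr10:30842784-30843033 on the minus strand, with the copy 207 bases before the start. That of *Lfng* is at chr5:140607091-140607340 on the plus strand, with the copy 109 bases before the start. That of *Psen2* is at chr1:180245951-180246200 on the minus strand, with the copy 89 bases before a start that lies inside the gene as the count table's annotation draws it. A match is a description of letters and not of binding. *Lfng* and *Psen2* were higher at 15.5 dpc, *Hey2* did not pass the test and *Hes5* was close to undetected, with the values given below by role.

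The samples held 10546028 to 16389237 counts. Levels are normalised counts, which are counts scaled to a common library size with TMM factors, and the stages were compared with edgeR's quasi-likelihood test, with Benjamini-Hochberg adjustment over the 15578 genes. A gene is called higher or lower at an adjusted p at or below 0.05. The labels name separate samples but not separate litters, so the p-values measure the spread between these 3 pools per stage. The 15.5 dpc samples differed among themselves more than those of 13.5 dpc, and differed by exon length. Across all genes tested, the log2 ratio of 15.5 dpc replicate 1 to replicate 2 had a Spearman rho of -0.59 with exon length, and that of replicate 2 to replicate 3 of 0.52. Without replicate 1 the common coefficient of variation fell from 0.15 to 0.0878, and without replicate 2 to 0.1. Pancreatic identity was plain in all samples, with *Pdx1* at 1225 ± 51.2 at 13.5 dpc and 1361 ± 104 at 15.5 dpc (SD, n = 3). The 8 acinar markers summed to 57146 to 69065 normalised counts at 13.5 dpc and 351424 to 864091 at 15.5 dpc, the highest sum being that of 15.5 dpc replicate 1. In whole organs, fewer cells of a type and less RNA per cell cannot be told apart.

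Of the 36 genes tested, 4 were higher at 15.5 dpc and 5 were lower, and 27 were not called. Over all genes tested, 11.6% were called higher and 10.7% lower, so the shares among the Notch pathway genes were near those of the table as a whole. The 4 genes that rose were the fringe genes *Lfng* and *Rfng*, the ligand *Dll4* and the presenilin *Psen2*. The 5 that fell were the receptor *Notch2*, the ligand *Dll3*, the nuclear complex genes *Maml2* and *Rbpj*, and the target *Hey1*. All 3 samples of 15.5 dpc lay above all 3 of 13.5 dpc for 10 genes and below for 13, beside 22.8% and 23.6% of all genes tested. The median log2 fold change of the 36 genes was 0.01, and that of all genes tested was -0.01.

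**Figure D1:**
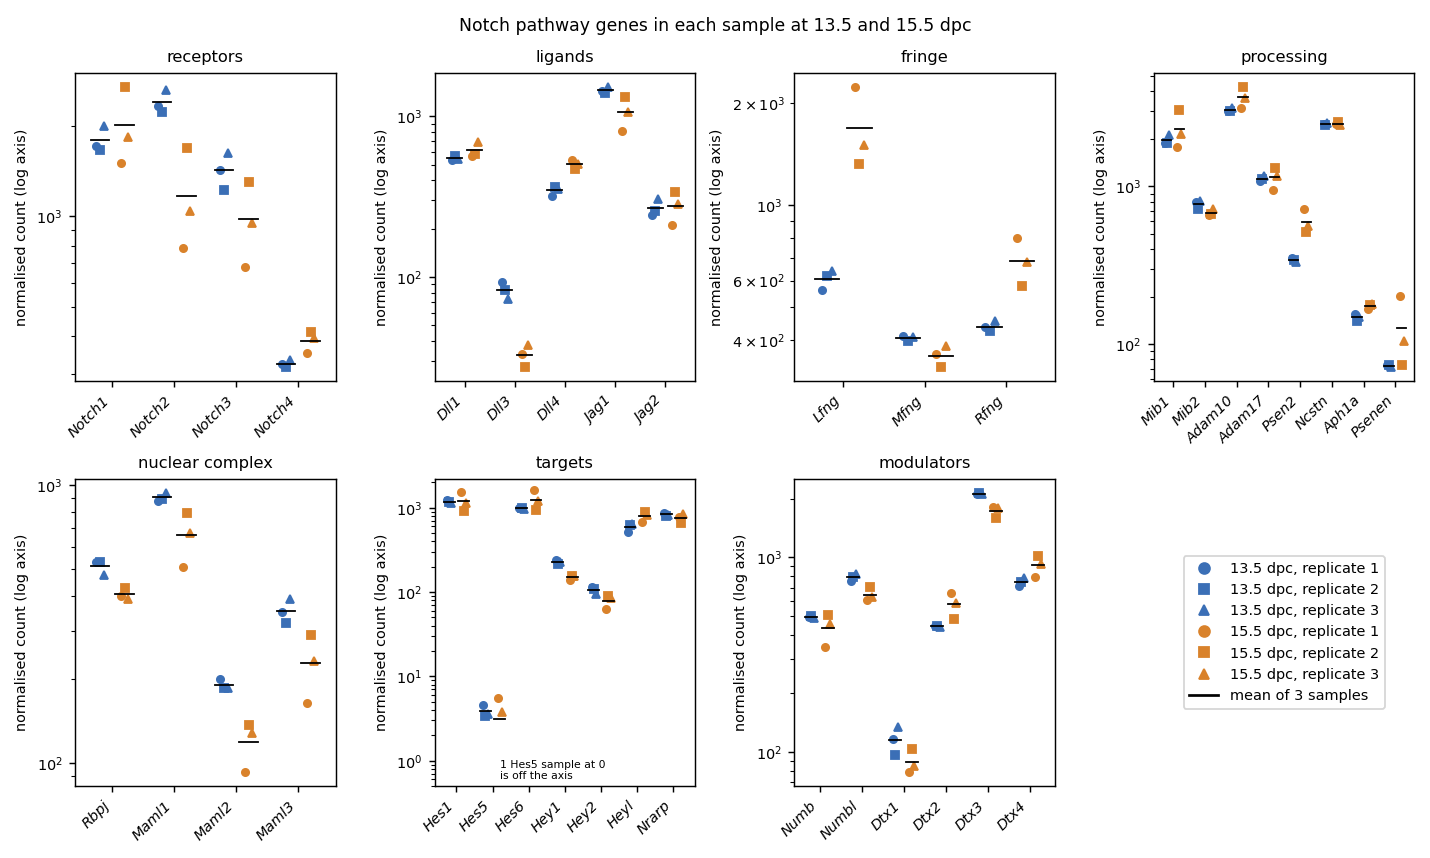
Normalised counts (log axis) of the 37 Notch pathway genes in each sample, in a panel for each role; blue marks are 13.5 dpc, orange marks are 15.5 dpc, the shape gives the replicate and the bar is the mean of 3 samples. The 15.5 dpc samples of *Notch1*, *Notch2*, *Notch3* and *Psenen* spread more than those of 13.5 dpc, and *Lfng* and *Dll3* stand well apart between the stages.

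Among the receptors, *Notch2* was the most abundant per length at 13.5 dpc and was no longer ahead at 15.5 dpc. *Notch2* (chr3:98013538-98150367, plus strand) measured 2316, 2223 and 2621 normalised counts at 13.5 dpc and 786, 1690 and 1040 at 15.5 dpc. Every sample of 15.5 dpc lay below every sample of 13.5 dpc. The gene was 2.03-fold lower at 15.5 dpc, a log2 fold change of -1.02 ± 0.26 (SE) with an adjusted p of 0.0296 in edgeR. With any 1 of the 13.5 dpc samples or with 15.5 dpc replicate 3 left out, the adjusted p was 0.0819 to 0.115, whereas it was 0.01 without 15.5 dpc replicate 1 and 0.000219 without replicate 2. The fall was -0.80 to -1.37 in log2 over these 6 fits.

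*Notch1* (chr2:26457903-26516663, minus strand), a receptor of pancreatic progenitors, measured 1718, 1656 and 1998 at 13.5 dpc and 1499, 2682 and 1838 at 15.5 dpc. The stages overlapped, with the lowest and the highest sample both at 15.5 dpc. Its log2 fold change was 0.16 ± 0.21, with an adjusted p of 0.578. *Notch3* (chr17:32120820-32166880, minus strand), a receptor prominent in mural cells, measured 1427, 1219 and 1620 at 13.5 dpc and 680, 1301 and 951 at 15.5 dpc. Here too the stages overlapped, by 15.5 dpc replicate 2 alone, and the log2 fold change was -0.54 ± 0.23 with an adjusted p of 0.126. Without that replicate it was -0.79, with an adjusted p of 0.00603 in edgeR. *Notch4* (chr17:34564268-34588503, plus strand), known mainly from endothelium, measured 324, 317 and 335 at 13.5 dpc and 353, 414 and 395 at 15.5 dpc. All samples of 15.5 dpc were above those of 13.5 dpc, but the log2 fold change of 0.25 ± 0.10 did not pass the test, with an adjusted p of 0.112.

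Levels of different genes were compared per kb of exon. *Notch2* was at 227 ± 19.8 normalised counts per kb at 13.5 dpc (SD, n = 3), ahead of *Notch3* at 177 ± 24.9, *Notch1* at 126 ± 12.8 and *Notch4* at 40.3 ± 1.1. At 15.5 dpc *Notch1* was at 141 ± 42.8, *Notch3* at 122 ± 38.7, *Notch2* at 112 ± 44.4 and *Notch4* at 48.1 ± 3.89. The order of the first 3 at 15.5 dpc was within the spread between samples. Within each sample, however, the ratio of *Notch2* to *Notch1* per kb was steady, at 1.83, 1.82 and 1.78 in the 13.5 dpc samples and 0.711, 0.854 and 0.766 in those of 15.5 dpc. *Notch2* thus exceeded *Notch1* in all samples of 13.5 dpc and was below it in all samples of 15.5 dpc. *Notch2* made up 39.9% ± 0.768 of receptor transcripts per length at 13.5 dpc and 26.0% ± 2.32 at 15.5 dpc, and *Notch1* 22.1% ± 0.425 and 33.4% ± 0.740. The exact two-sided permutation test of the log2 ratio gave 0.1, which is the smallest p that 3 against 3 samples allow. It was also 0.1 for each of the other 8 ratios computed, and 0.1 after Benjamini-Hochberg adjustment over the 9, which were chosen with the levels known.

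**Figure D2:**
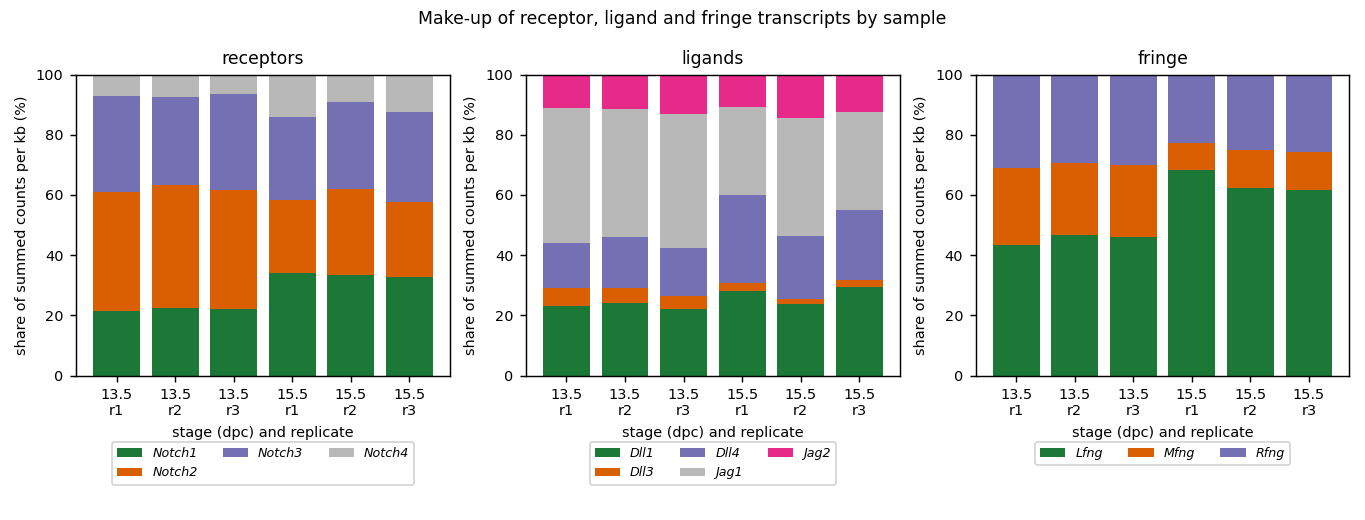
Share of each gene (percent, from 0 to 100) in the summed normalised count per kb of the receptors, the ligands and the fringe genes, with a bar for each sample. *Notch2* takes 39.4% to 40.8% of the receptor bar at 13.5 dpc and 24.3% to 28.6% at 15.5 dpc, and *Lfng* goes from 43.4% to 46.5% of the fringe bar to 61.7% to 68.4%.

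The ligands split, with *Dll4* higher, *Dll3* lower and 3 ligands not called. *Dll4* (chr2:119325784-119335962, plus strand), a ligand best known from sprouting vessels, measured 319, 364 and 353 at 13.5 dpc and 537, 468 and 501 at 15.5 dpc. The stages did not overlap. *Dll4* rose 1.45-fold, a log2 fold change of 0.54 ± 0.11 with an adjusted p of 0.0125 in edgeR. Without 15.5 dpc replicate 3 or any 1 of the 13.5 dpc samples the adjusted p was 0.0522 to 0.0754, and when scaled by library size only *Dll4* was at 0.32 in log2 with an adjusted p of 0.0578. The 10 endothelial markers, none of them at 0, summed to 7868 to 8400 at 13.5 dpc and 8511 to 8959 at 15.5 dpc. Of those 10, *Esam* alone was called, with a log2 fold change of 0.46 ± 0.13 and an adjusted p of 0.0406 in edgeR, and the part of endothelial cells in the difference in *Dll4* was not tested.

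*Dll3* (chr7:28293553-28302238, minus strand) encodes a divergent ligand that does not activate Notch receptors on neighbouring cells. It measured 92.9, 83.2 and 73.3 at 13.5 dpc and 33.2, 27.6 and 37.8 at 15.5 dpc. The lowest sample of 13.5 dpc was well above the highest of 15.5 dpc. *Dll3* fell 2.53-fold, with a log2 fold change of -1.34 ± 0.19 and an adjusted p of 0.00355 in edgeR, and with any 1 sample left out the fall stayed called, at -1.20 to -1.45 in log2. The 8 endocrine progenitor markers summed to 5835 to 5991 at 13.5 dpc and 4750 to 4961 at 15.5 dpc, and 3 of them were called lower, among them *Neurog3* at a log2 fold change of -0.33 ± 0.09. The 6 neural and glial markers summed to 1374 to 1445 and 1031 to 1120, with 3 called lower. None of these markers was at 0, and their part in the fall of *Dll3* was not tested.

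*Jag1* (chr2:137081456-137116644, minus strand), the ligand gene mutated in Alagille syndrome, measured 1439, 1387 and 1516 at 13.5 dpc and 805, 1323 and 1064 at 15.5 dpc. All samples of 15.5 dpc were lower, yet the log2 fold change of -0.44 ± 0.17 had an adjusted p of 0.102. It was -0.62 with an adjusted p of 0.00539 in edgeR without 15.5 dpc replicate 2. *Dll1* (chr17:15367354-15376872, minus strand), the ligand that *Neurog3*-positive cells present, measured 533, 566 and 541 and then 565, 580 and 695. The ranges met only at their edges, and the log2 fold change was 0.17 ± 0.11 with an adjusted p of 0.294. *Dll1* shares 16.1% of its 50-base windows with transcripts of other genes on either strand, so its counts, and the ratios to it, may be less certain. *Jag2* (chr12:112908590-112929495, minus strand), the other Jagged ligand, measured 244, 257 and 305 and then 210, 339 and 286. The samples of both stages were mixed, and its log2 fold change was 0.05 ± 0.19 with an adjusted p of 0.853.

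Per kb, *Jag1* had the highest mean of the ligands at both stages, with 248 ± 11.2 at 13.5 dpc and 183 ± 44.4 at 15.5 dpc, although *Dll4* was slightly above it in 15.5 dpc replicate 1, and *Dll3* was last, with 29.2 ± 3.45 and 11.5 ± 1.79. *Dll1* and *Dll4* were at 130 ± 4.06 and 89.7 ± 6.16 at 13.5 dpc, and at 145 ± 16.9 and 130 ± 8.91 at 15.5 dpc. The ratio of *Dll4* to *Dll1* was 0.656, 0.705 and 0.716 at 13.5 dpc and 1.04, 0.885 and 0.789 at 15.5 dpc, with no overlap. The ratio of *Jag1* to *Dll1* was 1.96, 1.78 and 2.03 at 13.5 dpc and 1.03, 1.65 and 1.11 at 15.5 dpc. Relative to *Dll1*, *Dll4* was thus higher and *Jag1* lower in each sample of 15.5 dpc than in any of 13.5 dpc.

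Fringe enzymes add a sugar to the fucose on Notch receptors, which changes how they respond to Delta and to Jagged. *Lfng* (chr5:140607341-140615543, plus strand), whose promoter is shown above, had the largest rise of the 36 genes tested. It measured 563, 617 and 639 at 13.5 dpc and 2227, 1326 and 1504 at 15.5 dpc. The lowest sample of 15.5 dpc was above the highest of 13.5 dpc by far more than the spread at 13.5 dpc. *Lfng* rose 2.78-fold, with a log2 fold change of 1.47 ± 0.19 and an adjusted p of 0.00287 in edgeR, and it was called with any 1 sample left out, at 1.22 to 1.63 in log2. *Rfng* (chr11:120780746-120784207, minus strand) measured 438, 425 and 455 at 13.5 dpc and 803, 578 and 681 at 15.5 dpc. It was higher in every sample of 15.5 dpc, by 1.56-fold, a log2 fold change of 0.64 ± 0.13 with an adjusted p of 0.0149 in edgeR. Without any 1 of the 13.5 dpc samples or 15.5 dpc replicate 3 the adjusted p of *Rfng* was 0.0629 to 0.0752.

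*Mfng* (chr15:78755882-78773475, minus strand) measured 413, 397 and 409 at 13.5 dpc and 364, 334 and 384 at 15.5 dpc. All 15.5 dpc samples were lower, but the log2 fold change of -0.17 ± 0.10 had an adjusted p of 0.23. *Lfng* was the most abundant fringe gene per kb at both stages, with 266 ± 17.1 at 13.5 dpc and 739 ± 209 at 15.5 dpc. *Rfng* followed with 177 ± 5.92 and 276 ± 45.2, and *Mfng* with 143 ± 2.93 and 127 ± 8.8. The ratio of *Lfng* to *Mfng* per kb was 1.70, 1.94 and 1.94 at 13.5 dpc and 7.61, 4.93 and 4.87 at 15.5 dpc. The order of the 15.5 dpc samples for *Lfng* and *Rfng*, replicate 1, then 3, then 2, was also that of the acinar, epithelial, erythroid and liver marker sums. The same order held for the exon length trend, in which short genes such as these were highest in replicate 1 and lowest in replicate 2. With that trend removed, *Lfng* was at 1.35 and *Rfng* at 0.56 in log2, with adjusted p of 0.000294 and 0.0026 in edgeR. The acinar sum was mostly *Ctrb1*, at 708798 in 15.5 dpc replicate 1, and the liver sum mostly *Ttr*. Among the acinar markers only *Nr5a2* had the reverse order, at 652, 1720 and 1203 in 15.5 dpc replicates 1 to 3. The part of the cells of these markers in the values was not tested.

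Of the 8 processing genes, *Psen2* rose and 7 were not called. *Psen2* (chr1:180227004-180263438, minus strand) encodes presenilin 2, a catalytic subunit of γ-secretase. It measured 351, 341 and 332 at 13.5 dpc and 717, 512 and 560 at 15.5 dpc. The stages did not overlap, and the highest sample was again 15.5 dpc replicate 1. *Psen2* rose 1.75-fold, with a log2 fold change of 0.80 ± 0.14 and an adjusted p of 0.00792 in edgeR, and stayed called with any 1 sample left out, at an adjusted p of at most 0.0476. The other 3 γ-secretase subunits among the 8 genes did not pass the test. *Ncstn*, the subunit that receives the substrate, was nearly level, at 2482 ± 22.0 and 2496 ± 55.5 (SD, n = 3) with a log2 fold change of 0.01 ± 0.08. *Aph1a*, a scaffold subunit, was at 148 ± 7.17 and 174 ± 5.90, with a log2 fold change of 0.23 ± 0.11. *Psenen*, the smallest subunit, measured 73.8, 73.7 and 71.8 at 13.5 dpc and 202, 73.6 and 105 at 15.5 dpc. A single sample, 15.5 dpc replicate 1, carried most of its log2 fold change of 0.77 ± 0.34, which was 0.27 without it and 1.07 with an adjusted p of 0.00875 in edgeR without 15.5 dpc replicate 2. *Aph1a* and *Psenen* share 39.5% and 23.4% of their 50-base windows with transcripts of other genes on either strand, so their counts may be less certain.

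*Adam10* and *Adam17*, the proteases of the first cut, were not called. *Adam10* measured 2991, 2990 and 3114 at 13.5 dpc and 3128, 4245 and 3630 at 15.5 dpc, higher in every sample, with a log2 fold change of 0.28 ± 0.12 and an adjusted p of 0.141. *Adam17* had a log2 fold change of 0.03 ± 0.13. Per kb, *Adam10* at 617 ± 14.5 was well above *Adam17* at 157 ± 5.57 at 13.5 dpc, and at 747 ± 114 against 159 ± 24.9 at 15.5 dpc. *Mib1* and *Mib2*, the ubiquitin ligases that drive endocytosis of ligands, had log2 fold changes of 0.24 ± 0.19 and -0.19 ± 0.09 with adjusted p of 0.382 and 0.184.

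All 4 genes of the nuclear complex were lower in every sample of 15.5 dpc than in any of 13.5 dpc, as were 23.6% of all genes tested, and 2 of them passed the test. With the gene length trend removed, *Rbpj* overlapped between the stages, at 510, 504 and 439 at 13.5 dpc and 471, 403 and 410 at 15.5 dpc. *Rbpj* (chr5:53555779-53657445, plus strand), the DNA-binding subunit, measured 530, 528 and 476 at 13.5 dpc and 400, 427 and 389 at 15.5 dpc. It fell 1.26-fold, with a log2 fold change of -0.33 ± 0.10 and an adjusted p of 0.0481 in edgeR, which is close to the threshold. *Rbpj* was called in 6 of 14 alternative analyses, and 10.6% of its 50-base windows also occur in transcripts of other genes, a pseudogene copy among them. *Maml2* (chr9:13619990-13709533, plus strand), a Mastermind coactivator, measured 201, 187 and 186 at 13.5 dpc and 92.7, 137 and 128 at 15.5 dpc. The stages were clearly apart. *Maml2* fell 1.59-fold, with a log2 fold change of -0.67 ± 0.16 and an adjusted p of 0.0254 in edgeR, and of 0.0782 to 0.105 without 15.5 dpc replicate 3 or any 1 of the 13.5 dpc samples.

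*Maml1* measured 882, 894 and 942 at 13.5 dpc and 509, 797 and 675 at 15.5 dpc, with a log2 fold change of -0.45 ± 0.16 and an adjusted p of 0.0789. *Maml3* measured 349, 320 and 389 and then 165, 288 and 233, with a log2 fold change of -0.62 ± 0.20 and an adjusted p of 0.0625. *Maml3* was called in 5 of 14 alternative analyses, and *Maml1* in 2, without 15.5 dpc replicate 2 (adjusted p = 0.00633 in edgeR) and with the length trend removed. In each of the 3 *Maml* genes the lowest sample was 15.5 dpc replicate 1 and the highest of that stage was replicate 2. *Maml1* was the most abundant Mastermind gene per kb, at 164 ± 5.78 and 119 ± 26.1, and *Maml2* the least, at 31.2 ± 1.4 and 19.5 ± 3.83.

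Among the targets *Hey1* fell, and *Hes1* was found at a high level at both stages. *Hes1* (chr16:30064384-30067796, plus strand), the repressor that restrains *Neurog3*, measured 1239, 1185 and 1129 at 13.5 dpc and 1550, 904 and 1150 at 15.5 dpc. The 15.5 dpc samples lay on both sides of those of 13.5 dpc. Its log2 fold change was 0.02 ± 0.19 with an adjusted p of 0.951, and its sign changed with the processing. *Hey1* (chr3:8663362-8667039, minus strand), a related repressor, measured 241, 213 and 228 at 13.5 dpc and 140, 153 and 155 at 15.5 dpc. There was no overlap between the stages and little spread within them. *Hey1* fell 1.52-fold, with a log2 fold change of -0.60 ± 0.11 and an adjusted p of 0.0112 in edgeR. That p was 0.0447 without 13.5 dpc replicate 2, 0.0695 and 0.057 without 13.5 dpc replicates 1 and 3, and 0.0507 without 15.5 dpc replicate 3.

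*Hey2*, with the Rbpj motif in its promoter, measured 114, 110 and 94.8 at 13.5 dpc and 62.3, 89.0 and 84.4 at 15.5 dpc, a log2 fold change of -0.42 ± 0.17 with an adjusted p of 0.117. *Heyl*, the third member of the family, had the opposite sign. It measured 514, 620 and 649 at 13.5 dpc and 670, 900 and 812 at 15.5 dpc, with a log2 fold change of 0.42 ± 0.14 and an adjusted p of 0.0742. DESeq2 called *Heyl* higher, with an adjusted p of 0.0389. The ratio of *Heyl* to *Hey1* per kb was 0.92, 1.26 and 1.23 at 13.5 dpc and 2.07, 2.53 and 2.26 at 15.5 dpc, so that the stages did not overlap in the balance of these genes.

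*Hes5* gave 5, 4 and 5 counts at 13.5 dpc and 4, 0 and 3 counts at 15.5 dpc, near the set floor of 3 counts per sample. It did not pass the filter on low counts and was not tested, although its promoter carries 2 copies of the motif. *Hes6*, which antagonises *Hes1*, measured 997, 991 and 971 at 13.5 dpc and 1621, 937 and 1191 at 15.5 dpc. The stages overlapped, and the log2 fold change of 0.34 ± 0.19 had an adjusted p of 0.216. It was 0.11 without 15.5 dpc replicate 1, and 0.52 with an adjusted p of 0.0102 in edgeR without replicate 2. The ratio of *Hes6* to *Hes1* per kb was 0.906, 0.942 and 0.969 at 13.5 dpc and 1.18, 1.17 and 1.17 at 15.5 dpc, so *Hes6* was the lower of the pair in each sample of 13.5 dpc and the higher in each of 15.5 dpc. *Nrarp*, a feedback inhibitor that binds the intracellular domain, measured 878, 808 and 815 and then 779, 655 and 837, with a log2 fold change of -0.14 ± 0.11 and an adjusted p of 0.391. Of the 50-base windows of *Nrarp*, 77.3% also occur in transcripts of other genes on either strand, so its counts may be less certain. Per kb the targets ran at 13.5 dpc from *Hes1* at 582 ± 27.0 and *Hes6* at 546 ± 7.46, through *Nrarp* at 324 ± 14.9, *Heyl* at 116 ± 13.9, *Hey1* at 103 ± 6.34 and *Hey2* at 41.6 ± 3.94, to *Hes5* at 2.83 ± 0.447.

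None of the 6 modulators was called in edgeR. DESeq2 called 2, *Dtx2* higher (adjusted p = 0.0469) and *Dtx3* lower (adjusted p = 0.0327), beside 15.2% higher and 12.2% lower of all genes tested. *Numb* and *Numbl*, adaptors that send Notch receptors to endocytosis, had log2 fold changes of -0.18 ± 0.15 and -0.30 ± 0.10, with adjusted p of 0.396 and 0.0687. The Deltex ubiquitin ligases did not share a sign, with *Dtx1* at -0.37 ± 0.18, *Dtx3* at -0.30 ± 0.09, *Dtx2* at 0.37 ± 0.13 and *Dtx4* at 0.28 ± 0.11 in log2. *Dtx3* measured 2108, 2155 and 2120 at 13.5 dpc and 1816, 1588 and 1789 at 15.5 dpc, which do not overlap, and its adjusted p of 0.0521 was just above the threshold. It was also the most abundant of the 37 genes per kb at 13.5 dpc, at 827 ± 9.35, and was at 673 ± 48.4 at 15.5 dpc.

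**Figure D3:**
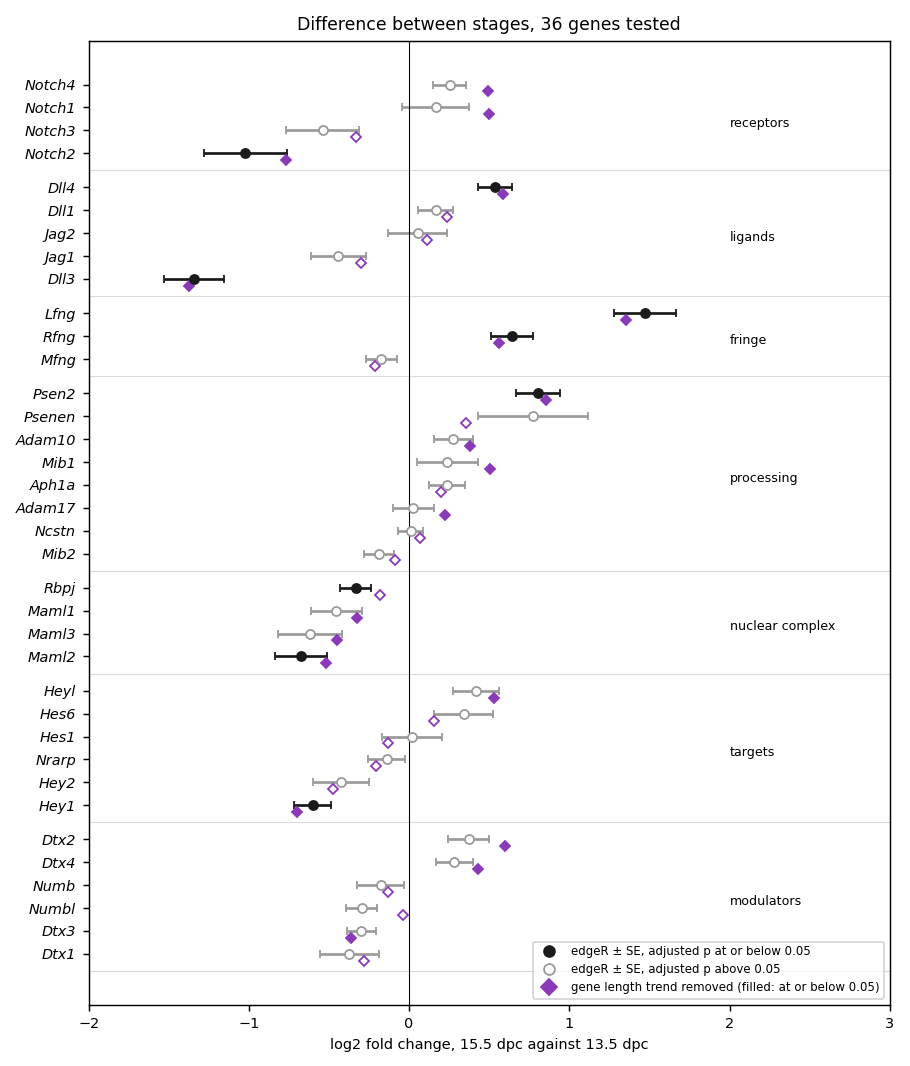
Log2 fold change of 15.5 against 13.5 dpc for the 36 genes tested, ordered within roles; circles are the edgeR estimates with their SE (filled where the adjusted p is at or below 0.05), and diamonds are the estimates with the gene length trend removed (filled likewise). The 9 filled circles run from -1.34 for *Dll3* to 1.47 for *Lfng*, and diamonds lie to the right of the circles for the long genes *Notch1* to *Notch4*.

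The receptor, Mastermind and *Mib1* genes are long, and the 15.5 dpc samples differed by exon length, so the stages were also compared with that trend taken out of each library. The trend was fitted without regard to stage, so any difference between the stages that follows exon length is taken out with it. Calls on this scale are thus not a cleaner form of the others. Over all genes tested the log2 fold change had a Spearman rho of -0.36 with exon length, and over the 36 Notch pathway genes of -0.24, which was 0.03 with the trend removed. Removing it called 12 of the 36 genes higher and 7 lower, beside 18.0% and 15.0% of all genes tested. The 4 genes called higher before were among the 12. The 8 others were *Notch1*, *Notch4*, *Mib1*, *Adam10*, *Adam17*, *Heyl*, *Dtx2* and *Dtx4*. Of the 5 genes called lower, *Rbpj* was lost, at a log2 fold change of -0.18 with an adjusted p of 0.189, and *Maml1*, *Maml3* and *Dtx3* were added. *Notch1* then measured 1563, 1514 and 1620 at 13.5 dpc and 2226, 2271 and 2151 at 15.5 dpc. On this scale its samples no longer overlapped, and its log2 fold change was 0.50 with an adjusted p of 0.000931 in edgeR. *Notch2* measured 2144, 2058 and 2213 and then 1087, 1483 and 1174, and its log2 fold change was -0.77 with an adjusted p of 0.00184 in edgeR. *Notch2* was therefore lower at 15.5 dpc on both scales, whereas the call of *Notch1* depended on the treatment of length. *Jag1* was at -0.30 with an adjusted p of 0.0503, and *Notch3* at -0.33 with an adjusted p of 0.0724.

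A list of 37 other genes of the pathway was measured beside these, of which 33 could be tested, and 3 were higher and 5 lower at 15.5 dpc, beside 11.6% and 10.7% of all genes tested. *Rbpjl* encodes the pancreatic relative of Rbpj, which serves in the Ptf1 complex of acinar cells and does not take up the Notch intracellular domain. It measured 2924, 3185 and 3597 at 13.5 dpc and 15317, 12835 and 12962 at 15.5 dpc, and rose with a log2 fold change of 2.08 ± 0.12 and an adjusted p of 0.000323 in edgeR. All samples of 15.5 dpc were far above those of 13.5 dpc. The ratio of *Rbpjl* to *Rbpj* per kb was 5.6, 6.12 and 7.66 at 13.5 dpc and 38.9, 30.5 and 33.8 at 15.5 dpc. Of the 8 acinar markers, 7 were also called higher, among them *Ptf1a* at 2.07 ± 0.20 and *Cpa1* at 2.04 ± 0.28 in log2, and their part in the rise of *Rbpjl* was not tested.

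*Sel1l*, an adaptor of the degradation machinery of the endoplasmic reticulum whose worm homologue restrains Notch, measured 2041, 2044 and 2393 at 13.5 dpc and 5664, 6287 and 5721 at 15.5 dpc. The samples of each stage were tightly grouped, and *Sel1l* rose with a log2 fold change of 1.45 ± 0.11 and an adjusted p of 0.000472 in edgeR. Since 7 of the 8 acinar markers were called higher too, acinar cells may have a part in this rise, which was not tested. *Hes7*, a *Hes* gene known from the somite clock, measured 21.0, 31.7 and 22.3 at 13.5 dpc and 134, 67.5 and 84.4 at 15.5 dpc. It was low at both stages but without overlap, and rose with a log2 fold change of 1.92 ± 0.31 and an adjusted p of 0.00592 in edgeR.

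The genes that fell were 2 Groucho corepressors, a γ-secretase subunit, a glycosyltransferase and a Dishevelled gene. *Tle4* measured 258, 250 and 241 at 13.5 dpc and 90.0, 168 and 131 at 15.5 dpc, a log2 fold change of -0.93 ± 0.21 with an adjusted p of 0.0194 in edgeR. *Tle3*, the other Groucho gene called, measured 2007, 1876 and 2052 and then 1147, 1578 and 1381, a log2 fold change of -0.53 ± 0.13 with an adjusted p of 0.0252 in edgeR. With the gene length trend removed, *Tle3* was at -0.21 with an adjusted p of 0.0854 and was no longer called. Both had their lowest sample in 15.5 dpc replicate 1. *Aph1b*, the γ-secretase subunit, measured 170, 154 and 188 and then 88.6, 112 and 84.4, a log2 fold change of -0.84 ± 0.16 with an adjusted p of 0.0106 in edgeR, and shares 18.4% of its 50-base windows with its copy *Aph1c*. *Poglut1*, which puts glucose on Notch receptors, and *Dvl2*, mainly a transducer of Wnt signals, had log2 fold changes of -0.39 ± 0.10 and -0.44 ± 0.09 with adjusted p of 0.0297 and 0.0173 in edgeR. None of these 5 falls stayed called in edgeR without 13.5 dpc replicate 1, without 13.5 dpc replicate 3 or without 15.5 dpc replicate 3, and all 5 stayed called without 15.5 dpc replicate 1 and without replicate 2. The adjusted p of the 5 without 15.5 dpc replicate 3 was 0.0557 to 0.132.

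**Figure D4:**
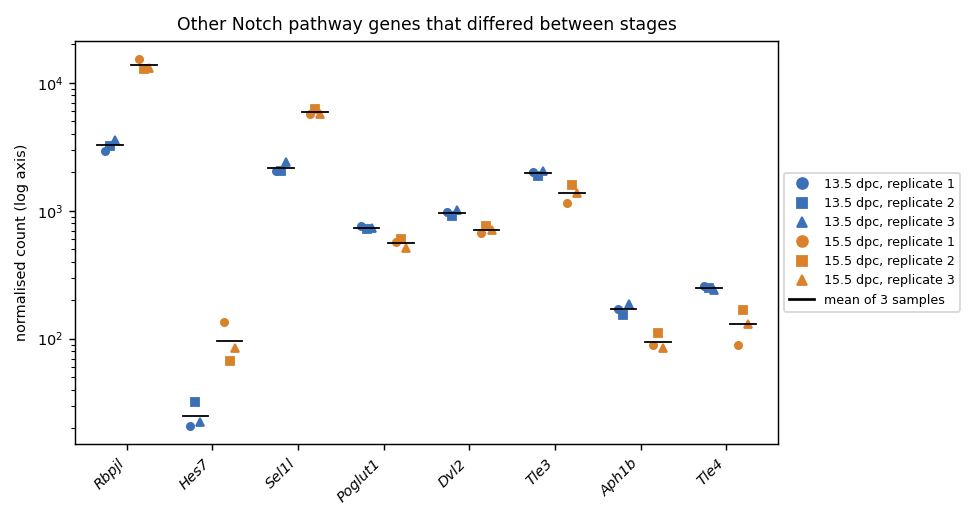
Normalised counts (log axis) of the 8 other Notch pathway genes that were called, ordered by their fold change, with colours and marks as in the plot of all Notch pathway genes by sample. *Rbpjl*, *Hes7* and *Sel1l* are higher and the remaining 5 genes lower in every 15.5 dpc sample than in any 13.5 dpc sample.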

How the data were processed

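The authors sequenced poly(A) RNA of wt pancreata, aligned the reads to mm10 with GSNAP and assigned those with a unique position to Ensembl genes with featureCounts 1.4.6, per the labels and the study's methods. They deposited raw counts of 37224 identifiers with the exon length of each gene. Symbols were joined by Ensembl identifier for 35449 of them.

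Stages were compared with edgeR 4.0.16 in R 4.3.3 (filterByExpr, TMM factors, quasi-likelihood test of stage without covariates, 3 samples per stage, Benjamini-Hochberg adjustment over all genes tested). The standard error is the size of the log2 fold change over the root of F. A normalised count is the count divided by the effective library size and multiplied by the geometric mean of these sizes. Totals of 10546028 to 16389237 counts per sample limit the precision of genes near the floor of 3 counts. That floor was set rather than estimated, was not the filter, and covers counting error only. The strand was used in counting, since 0 of 320 genes lying wholly within exons of the same strand reached 10 counts, against 29 of 146 within the opposite strand. The gene length trend was a lowess curve (span 0.5) of each library's log2 difference from the mean of the libraries against log2 exon length, entered as offsets. Shared sequence was counted as 50-base windows of GENCODE transcripts that also occur, on either strand, in transcripts of other genes. Since the strand was used in counting, a window shared with the opposite strand need not affect the counts. Alternatives were DESeq2 1.42.0, other scalings and filters, a replicate block, each sample left out, and the study's thresholds. The scripts were tested on simulated data. Figures used Python 3.11.15 and matplotlib 3.10.9.

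The genes, lists and tests were chosen with earlier results of these data known. Every gene of the pathway list is given, those called and all receptors and ligands in every sample. Of the other pathway genes, those called are named, up to 5 in each direction. Marker lists covered pancreas epithelium, acinar, endocrine progenitor, endothelium, pericyte and smooth muscle, mesenchyme, immune, neural and glial, erythroid, liver and cell cycle genes. Results for some single marker genes are not reported here.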

Additional observations from a re-analysis of the deposited data

How the results depend on the processing

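*Dll3*, *Lfng*, *Psen2*, *Rbpjl*, *Sel1l* and *Hes7* were called in the same direction in all 14 alternatives that changed the fit, and 11 of the 44 genes named kept direction and call in each. The study's thresholds, applied to the calls only, did not keep *Dll3* or *Hes7*. Over 616 comparisons of a gene with an alternative, 509 kept direction and call, 36 gained and 50 lost the call, and 21 changed sign. Genes called higher numbered 4 in edgeR, 12 with the length trend removed, 2 under the study's thresholds (*Lfng*, *Psen2*, beside 981 higher and 558 lower of the 15578 genes) and 2 to 8 with a sample left out. Genes called lower numbered 5, 10 when scaled by library size only (beside 3 higher, without *Dll4*), 1 under the study's thresholds (*Notch2*) and 1 to 10 with a sample left out. DESeq2 called 6 of the genes higher and 7 lower, beside 15.2% and 12.2% of all genes tested. Over all genes tested, 19.0% were lower and 7.27% higher by library size only, and 3.29% to 23.3% were lower and 4.54% to 24.7% higher with a sample left out. Among the fits with a sample left out, the fewest calls came without any 1 of the 13.5 dpc samples or without 15.5 dpc replicate 3, and the most without 15.5 dpc replicates 1 or 2. Other pathway genes called higher numbered 3, or 7 with the length trend removed, and those called lower 5, or 9 by library size only, 2 under the study's thresholds and 0 to 13 with a sample left out. Library size only moved the median of all genes from -0.01 to -0.22 in log2, and that of the 36 genes from 0.01 to -0.21, and with a sample left out the latter was -0.0787 to 0.0174. The cause was not tested. Calls gained without 15.5 dpc replicate 1 were *Adam10*, *Dtx4*, *Heyl* and *Notch4* higher and *Dtx3* and *Maml3* lower, and without replicate 2 *Dtx2*, *Hes6* and *Psenen* higher and *Jag1*, *Maml1*, *Maml3*, *Notch3* and *Numbl* lower. Samples of the same number did not deviate together (correlations 0.211, -0.209 and 0.034). With a replicate block, *Rbpj* lost its call (adjusted p = 0.102 in edgeR), 4 genes were called higher and 4 lower (9.15% and 8.02% of all genes tested), and 3 other pathway genes were called lower (*Dvl2* and *Poglut1* lost).

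No gene whose sign changed was called in either direction with that sign. By library size only, the log2 fold change was -0.0275 for *Notch1*, -0.0435 for *Dll1*, -0.14 for *Jag2*, -0.18 for *Adam17*, -0.20 for *Ncstn* and -0.21 for *Hes1*. With upper quartile factors it was -0.0051 for *Adam17*, -0.0231 for *Ncstn* and -0.0143 for *Hes1*. Without a filter it was -0.0155 for *Ncstn* and -0.0088 for *Hes1*, and with at least 10 counts in every sample -0.0042 for *Ncstn*. *Hes1* was at -0.0131 with the replicate block and -0.13 with the length trend removed. With a sample left out, the ranges were -0.0881 to 0.34 for *Notch1*, -0.10 to 0.22 for *Jag2*, -0.0693 to 0.14 for *Adam17*, -0.000101 to 0.0228 for *Ncstn* and -0.21 to 0.20 for *Hes1*.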

Other observations

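*Dlk1*, a noncanonical ligand of the Notch family that lacks the domain for receptor activation, had the highest level among the 74 Notch pathway genes listed. It measured 35902, 35520 and 36959 normalised counts at 13.5 dpc and 33617, 28929 and 30326 at 15.5 dpc. All samples of 15.5 dpc were lower, but the log2 fold change of -0.22 ± 0.10 had an adjusted p of 0.138 in edgeR. *Sox9*, a gene of pancreatic progenitors and ducts known to act beside Notch, was at 2541 ± 111 at 13.5 dpc and 1591 ± 266 at 15.5 dpc (SD, n = 3), with a log2 fold change of -0.67 ± 0.13 and an adjusted p of 0.0123 in edgeR.

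The 8 pericyte and smooth muscle markers summed to 5450 to 5829 at 13.5 dpc and 5324 to 5450 at 15.5 dpc, with *Acta2* and *Tagln* called higher (log2 fold changes of 0.96 ± 0.12 and 1.13 ± 0.20) and *Rgs5* lower (-0.85 ± 0.15). The 8 mesenchyme markers summed to 119605 to 135360 and 88377 to 131378, with 2 called higher and 2 lower. The 6 cell cycle markers summed to 18761 to 18870 and 18825 to 21373, the 6 immune markers to 1265 to 1307 and 1099 to 1445, the 5 erythroid markers to 8928 to 9984 and 10980 to 30383, and the 5 liver markers to 6034 to 6705 and 5803 to 10885. Most of the liver sum was *Ttr*, at means of 5124 and 7171, and the median log2 fold change of the 5 was -0.61, with 1 called lower. The highest erythroid and liver sums were both in 15.5 dpc replicate 1. The 10 epithelial markers summed to 27178 to 28912 and 34610 to 41496, with 4 called higher and 2 lower, *Sox9* and *Nkx6-1*. *Hes2* and *Hes3* had no counts in any sample.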
